A study of Mus musculus with 12 samples.

Results

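The Hox cluster genes encode homeodomain transcription factors that give cells an address along the body axis. In mouse they lie in 4 clusters on separate chromosomes, Hoxa on chromosome 6, Hoxb on 11, Hoxc on 15 and Hoxd on 2, and members of different clusters that descend from the same ancestral gene share a paralog group, numbered 1 to 13 from the anterior to the posterior end. The members were taken as the protein-coding entries named Hoxa, Hoxb, Hoxc or Hoxd with a number, and 39 genes were found among the 55004 rows of the deposited table, 11 in Hoxa, 10 in Hoxb, 9 in Hoxc and 9 in Hoxd. They occupy 40 rows, because Hoxd4 is listed with 2 gene models. The longer model was used, and the other held at most 2 counts in a library.

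The order of the genes along a cluster follows the order in which they are switched on in the embryo and their anterior limits of expression, a rule known as colinearity. Adult fibroblasts are known to keep much of this pattern in culture, and their Hox transcripts are often read as a record of position. Genes of the posterior groups 9 to 13 pattern the lumbosacral trunk, the limbs and the urogenital tract, and Hoxa10 and Hoxa11 are known from mouse mutants for their part in testicular descent. Polycomb complexes keep silent members closed and Trithorax-group proteins keep active members open, while proteins of the TALE class (Pbx, Meis and Pknox) bind DNA together with Hox proteins.

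RNA was measured in mouse TM3 and TM4 cells, lines labelled as testicular Leydig and testicular Sertoli cells, after 72 hours with 100 uM MEHP (the monoester metabolite of the plasticizer DEHP) or with its vehicle, 0.1% DMSO. This gave 4 groups of 3 libraries each, TM3 with DMSO, TM3 with MEHP, TM4 with DMSO and TM4 with MEHP. Some labels call the lines rat, but the organism given and the gene identifiers are of mouse. Each cell type is represented by 1 line, so a difference between lines and a difference between cell types cannot be told apart. The labels do not say whether replicates were separate cultures, so the p-values measure the spread between these libraries. In such bulk RNA, fewer cells with a transcript and less transcript per cell cannot be told apart either.

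Library totals ran from 15771908 to 18203115 counts, and a count of 0 allows a level of up to 3 counts, or 0.165 to 0.190 CPM, read counts scaled to library size. This floor covers counting error only. A member was called detected when every library of a group held more than 3 counts. Several defining markers of the labelled cell types were missing in both lines. Of 11 Leydig markers 5 were detected in TM3 and 4 in TM4 under DMSO, with the LH receptor gene Lhcgr and the steroidogenic genes Hsd3b1, Hsd3b6 and Hsd17b3 at 0 in every group, and summed levels of 21.8 to 23.8 CPM in TM3 and 18.9 to 23.1 CPM in TM4. Of 17 Sertoli markers 9 were detected in TM3 and 5 in TM4, with the FSH receptor gene Fshr and the regulator Dmrt1 at 0 in every group, and summed levels of 418 to 457 CPM in TM3 against 244 to 253 CPM in TM4. Genes of peritubular myoid cells and fibroblasts summed to 13605 to 14075 CPM in TM3 and 7517 to 8261 CPM in TM4 under DMSO. Germ-cell markers summed to at most 28.8 CPM in TM3 and 1.45 CPM in TM4, leukocyte markers to 4.69 and 3.09 CPM, and endothelial markers to 1.48 and 1.01 CPM. The part of these marker differences in the Hox results was not tested.

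The promoters of neighbouring Hoxd genes are shown first, because the posterior limit of detection in this cluster lay at a different gene in each line. Each line gives the 250 bases before a RefSeq start on GRCm38.p6, plus strand. Capitals mark matches, on either strand, to the motifs named after the sequences. Hoxd11 has 2 RefSeq starts.
Hoxd12, chr2:74674763-74675012: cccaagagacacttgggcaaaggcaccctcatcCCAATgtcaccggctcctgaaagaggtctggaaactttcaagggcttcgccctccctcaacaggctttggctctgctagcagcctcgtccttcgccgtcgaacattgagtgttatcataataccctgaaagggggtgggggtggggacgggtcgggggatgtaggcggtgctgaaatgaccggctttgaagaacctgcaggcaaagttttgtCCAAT
Hoxd11 at its upstream start, chr2:74679308-74679557: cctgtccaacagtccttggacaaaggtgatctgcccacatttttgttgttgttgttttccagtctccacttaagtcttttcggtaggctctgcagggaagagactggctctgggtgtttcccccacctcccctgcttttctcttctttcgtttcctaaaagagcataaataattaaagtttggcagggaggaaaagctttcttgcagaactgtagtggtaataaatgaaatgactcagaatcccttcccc
Hoxd11 at its downstream start, chr2:74682073-74682322: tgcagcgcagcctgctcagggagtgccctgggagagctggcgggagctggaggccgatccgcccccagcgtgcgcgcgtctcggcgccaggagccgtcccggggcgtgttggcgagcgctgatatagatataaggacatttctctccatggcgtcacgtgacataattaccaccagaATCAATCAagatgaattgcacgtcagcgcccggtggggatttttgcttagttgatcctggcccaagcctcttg
Hoxd10, chr2:74691641-74691890: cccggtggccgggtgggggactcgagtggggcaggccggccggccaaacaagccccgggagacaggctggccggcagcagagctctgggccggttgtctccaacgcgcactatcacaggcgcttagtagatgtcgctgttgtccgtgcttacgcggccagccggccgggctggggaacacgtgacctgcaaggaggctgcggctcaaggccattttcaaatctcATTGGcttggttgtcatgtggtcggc
Hoxd9, chr2:74697513-74697762: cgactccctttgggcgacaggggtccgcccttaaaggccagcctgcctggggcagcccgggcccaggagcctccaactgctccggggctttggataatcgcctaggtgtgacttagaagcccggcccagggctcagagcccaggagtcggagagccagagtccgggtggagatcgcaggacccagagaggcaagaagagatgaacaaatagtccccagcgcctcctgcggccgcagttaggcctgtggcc
Hoxd8, chr2:74704365-74704614: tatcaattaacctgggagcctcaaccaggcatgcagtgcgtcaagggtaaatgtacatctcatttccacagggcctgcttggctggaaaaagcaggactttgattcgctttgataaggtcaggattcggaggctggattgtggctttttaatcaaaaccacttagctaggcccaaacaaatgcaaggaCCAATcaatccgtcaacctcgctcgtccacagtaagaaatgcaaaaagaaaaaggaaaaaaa

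3 motifs were searched on both strands. CCAAT, the box bound by NF-Y, was found in the 250 bases of Hoxd8, Hoxd10 and Hoxd12, and it stood in 33.8% of all 32851 promoter windows of the RefSeq table and in 14 of the 24 Hox windows (22 genes) that the table holds. TGATNNAT, a form of the site that Pbx and Hox proteins bind together, was found before the downstream start of Hoxd11, and it stood in 7.68% of all windows and in 4 Hox windows. TATAAA, the core of the TATA box, was found in none of the 6 sequences printed, against 12.4% of all windows and 4 Hox windows. The G and C content was 65.2% before Hoxd9 and 65.6% before Hoxd10, with 13 and 20 CpG pairs, and the medians over all windows were 52.4% and 6 pairs. These matches are letters in a window and say nothing of binding.

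Both lines transcribed most of the Hox genes. TM4 reached further towards the posterior end in Hoxb and Hoxd, whereas the last gene detected was the same in both lines in Hoxa (Hoxa11) and Hoxc (Hoxc13). Under DMSO 29 of the 39 members were detected in TM3 and 34 in TM4. The 29 of TM3 were also detected in TM4, and Hoxb13, Hoxc11, Hoxc12, Hoxd10 and Hoxd11, all of groups 11 to 13 except Hoxd10, were detected in TM4 alone. Of the 16 members of groups 9 to 13, 8 were detected in TM3 and 13 in TM4, whereas all 15 members of groups 4 to 8 were detected in both lines. Hoxa13, Hoxb1, Hoxd1, Hoxd12 and Hoxd13 were detected in neither. With more than 10 counts required in every library, 28 members were detected in TM3 and 31 in TM4. Hoxc8 and Hoxd3 were then detected in TM3 alone.

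Among the undetected members Hoxa13, the most posterior gene of its cluster, had 0 counts in all 12 libraries, and Hoxb1, the hindbrain gene, had 1 count in 1 library. Hoxd12 and Hoxd13, which pattern the digits and the external genitalia, had 0 counts in the 6 DMSO libraries and at most 4 counts in a library with MEHP. Hoxd13 held 3, 1 and 1 counts in the TM3 libraries with MEHP and 1, 0 and 3 in those of TM4. Hoxd12 held 2, 4 and 0 counts in the TM4 libraries with MEHP. These values lie at the floor. The same 29 members were detected in TM3 with MEHP, and 33 in TM4, where Hoxd4, at 4, 7 and 7 counts under DMSO, held 4, 4 and 1.

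**Figure D1:**
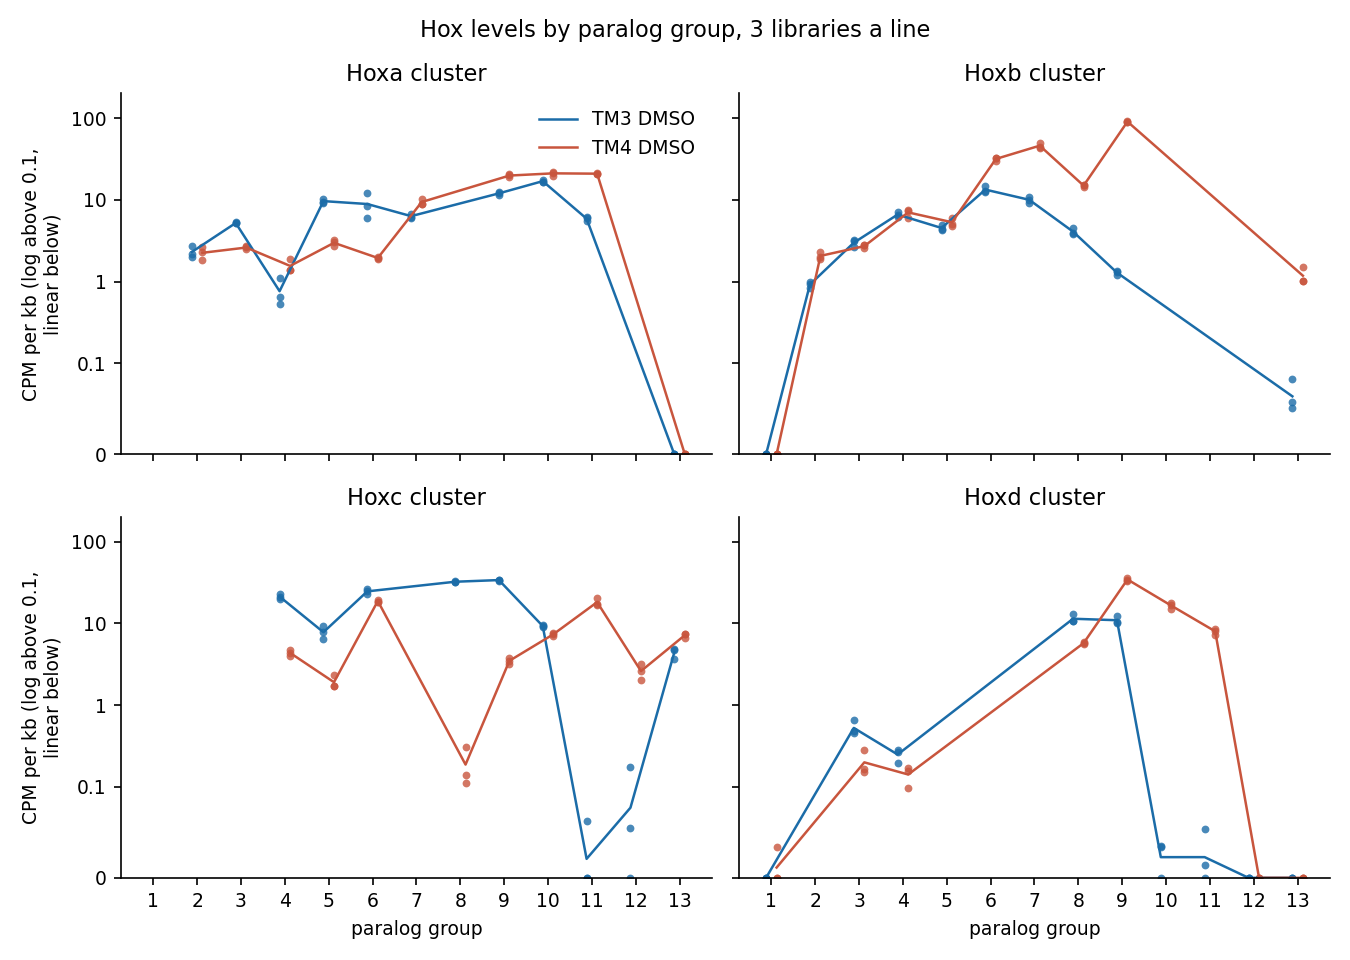
Level of the Hox genes (CPM per kilobase of gene model, on an axis that is logarithmic above 0.1 and linear below) against its paralog group in the 4 clusters, for TM3 (blue) and TM4 (red) under DMSO. Points are libraries and lines join the means of 3. Hoxc8 fell to 0.188 in TM4, Hoxc11 to 0.0209 and Hoxd10 to 0.0228 in TM3, and TM4 lay above TM3 from Hoxb6 to Hoxb13.

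The leading members differed between the lines. Levels were compared between genes as CPM per kilobase of the deposited gene model, abbreviated CPM per kb. In TM3 under DMSO the highest were Hoxc9 at 33.9 ± 0.365 (SD, n = 3) and Hoxc8 at 32.3 ± 0.907, genes of the thoracic and lumbar levels. Hoxc6 followed at 24.7 ± 1.91 and Hoxc4 at 21.3 ± 1.51, and the ranges of these last libraries overlapped. In TM4 under DMSO the highest was Hoxb9 at 90.6 ± 2.04 CPM per kb, followed by Hoxb7 at 46.0 ± 2.99, Hoxd9 at 34.5 ± 1.74 and Hoxb6 at 31.7 ± 1.49, and the libraries of each stood apart from those of the next. From the fifth place on in TM4, Hoxa10, Hoxa11, Hoxa9, Hoxc6, Hoxc11, Hoxd10 and Hoxb8 formed a run from 21.1 to 14.9 CPM per kb in which each overlapped its neighbour. Among the 20 steps that follow the 20 highest places, library ranges overlapped at 13 in TM3 and at 11 in TM4.

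The clusters took different shares of the summed level. The members summed to 723 ± 16.9 CPM in TM3 and 1044 ± 23.0 CPM in TM4. On the per-kilobase scale Hoxc made up 49.2 ± 0.326% in TM3 and 15.5 ± 0.238% in TM4, while Hoxb made up 16.2 ± 0.326% in TM3 and 48.6 ± 0.459% in TM4. Hoxa held 26.1 ± 0.297% in TM3 and 20.2 ± 0.334% in TM4. Hoxd held 8.53 ± 0.906% in TM3 and 15.7 ± 0.747% in TM4. For each cluster the 3 libraries of TM3 did not overlap those of TM4, so that Hoxc led in every TM3 library and Hoxb in every TM4 library.

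**Figure D2:**
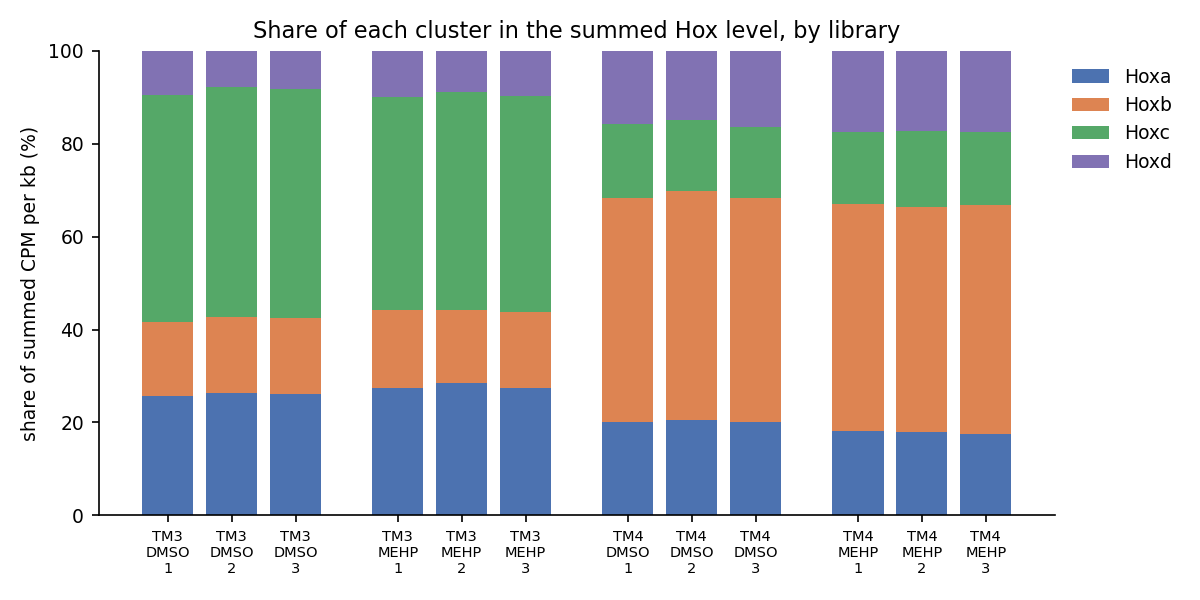
Share of each cluster in the summed Hox level (percent of CPM per kb) in each of the 12 libraries, 3 per group. Hoxc made up 49.2% in TM3 and 15.5% in TM4 under DMSO, Hoxb 16.2% and 48.6%, and the libraries with MEHP resembled the DMSO libraries of their line.

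The sums by position followed the same contrast. Groups 9 to 13 held 35.0 ± 1.13% of the summed level per kilobase in TM3 and 60.7 ± 1.16% in TM4, and groups 10 to 13 held 13.5 ± 0.366% and 24.9 ± 0.381%. Groups 4 to 8 held 59.6 ± 1.33% in TM3 and 36.7 ± 1.33% in TM4, and the anterior groups 1 to 3 held 5.44 ± 0.226% and 2.66 ± 0.222%. Weighted by level, the mean paralog number was 7.18 ± 0.0611 in TM3 and 8.31 ± 0.0277 in TM4. It was higher in TM4 in each cluster, by the largest margin in Hoxb (5.82 ± 0.0561 against 7.59 ± 0.0392) and by the smallest in Hoxd (8.32 ± 0.0417 against 9.38 ± 0.00900). With Hoxb9 left out of TM4 and Hoxc9 out of TM3, groups 9 to 13 held 49.7% in TM4 and 25.7% in TM3.

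Between the lines under DMSO, 34 of the 39 genes passed the filter on low counts and were tested. Of these, 17 were higher and 12 lower in TM4 (edgeR quasi-likelihood test, Benjamini-Hochberg adjusted p under 0.05 over all genes tested), 85.3% of the members tested. Of all 15700 genes tested 82.0% were called, 40.0% higher and 42.0% lower. A call as such is thus close to the background of these lines. Calls of at least 2-fold numbered 21 (61.8%, background 47.7%), 13 higher and 8 lower (background 21.2% and 26.5%), and calls of at least 8-fold 8 (23.5%, background 15.3%). Of these calls 5 belong to Hoxb13, Hoxc11, Hoxc12, Hoxd10 and Hoxd11, which passed the filter through TM4 and could only come out higher there, so the counts over 34 members are a description. Over the 29 members detected in both lines, 12 were higher and 12 lower (82.8%), 16 of them by at least 2-fold (55.2%) and 3 by at least 8-fold (10.3%). The 29 include Hoxc8, called lower by at least 8-fold, and Hoxd4, which was not called. Both passed the filter through TM3 and could only come out lower in TM4, so these counts are a description as well. Of these 29, the 8 of groups 9 to 13 gave 6 higher and 2 lower, the 15 of groups 4 to 8 gave 5 higher and 7 lower, and the 6 of groups 1 to 3 gave 1 higher and 3 lower. The libraries of the lines did not overlap for 30 of 34 members, against 82.9% of all genes tested. The 5 members that passed the filter through TM4 are among these 30, as are Hoxc8 and Hoxd4, so this count too is a description. The median log2 fold change was -0.04 over the 29 members detected in both lines and -0.01 over all genes.

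**Figure D3:**
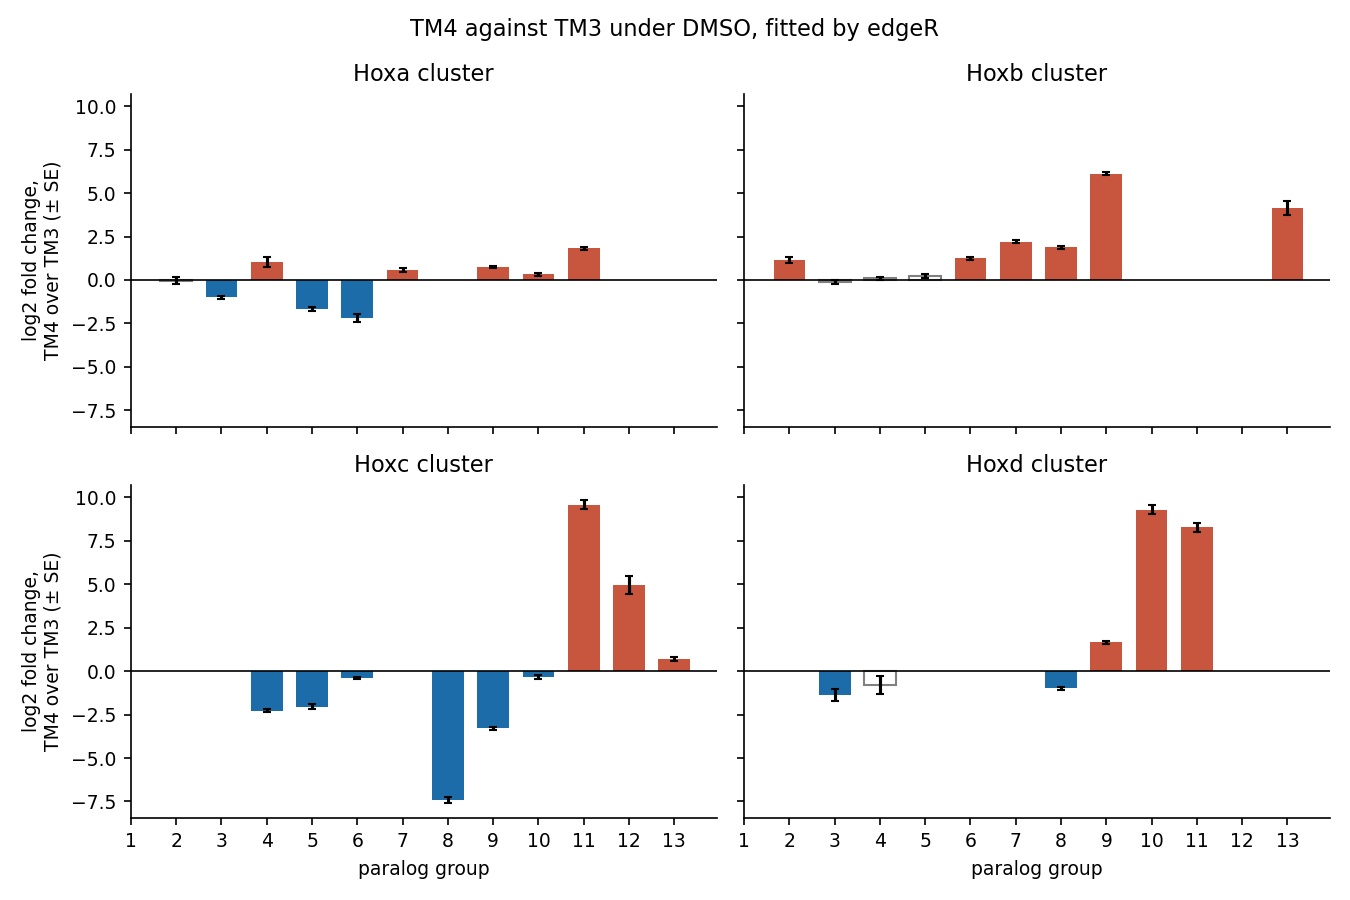
Log2 fold change of TM4 over TM3 under DMSO with its standard error for tested members, by cluster and paralog group. Filled bars passed an adjusted p of 0.05 (edgeR, red higher and blue lower in TM4), open bars did not. Bars for Hoxb13, Hoxc11, Hoxc12, Hoxd10 and Hoxd11 rest on at most 4 counts in a TM3 library, so their height depends on the prior count.

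In the Hoxd cluster the transcribed stretch ended between different neighbours in each line. Hoxd8 held 586, 513 and 462 counts in the TM3 libraries and 249, 269 and 258 in those of TM4, so every TM3 library was higher. Hoxd9, which with its paralogs patterns the lumbosacral trunk, was higher in TM4, with 436, 376 and 353 counts in TM3 against 1152, 1245 and 1229. The next gene, Hoxd10, known for motor neuron and hindlimb patterning, held 1, 0 and 1 counts in TM3 and 489, 477 and 506 in TM4. Hoxd10 and Hoxd9 are 2621 bases apart, and in TM3 the level per kilobase dropped there from 10.9 to 0.0228.

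Hoxd11, which with Hoxa11 builds the kidney and the forearm, held 1, 4 and 0 counts in TM3 and 480, 608 and 576 in TM4. All TM4 libraries were far above those of TM3. In TM4 the fall came at the next step, 1851 bases on, where Hoxd12 had 0 counts in all 3 DMSO libraries. The ratio of TM4 to TM3 was 744 for Hoxd10 (95% counting interval 206 to 6153) and 337 for Hoxd11 (144 to 1038). Both genes passed the filter through TM4 and could only come out higher there, so their counts are given without a p-value. The differences of Hoxd8 and Hoxd9 were -0.99 ± 0.09 and 1.65 ± 0.08 on the log2 scale (SE, adjusted p 1.25e-11 and 1.75e-18, edgeR). The anterior end was low in both lines. Hoxd3 held 33, 48 and 30 counts in TM3 and 11, 21 and 10 in TM4, and Hoxd4 did not pass (adjusted p 0.154). By GENCODE M21, 62.3% of the exon bases of Hoxd3 are shared with Hoxd4 and other genes on its strand, so the assignment of its reads is uncertain.

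In the Hoxc cluster each line was far below the other in some members. By the rule of more than 3 counts only TM3 had members that were not detected (Hoxc11 and Hoxc12). With more than 10 counts required, Hoxc8 was not detected in TM4. Hoxc8, which sets the identity of thoracic vertebrae and brachial motor neurons, held 1558, 1579 and 1431 counts in TM3 and 14, 7 and 5 in TM4. TM3 was higher by a ratio of 174 (95% counting interval 118 to 266). Hoxc8 passed the filter through TM3 and could only come out lower in TM4, so its counts are given without a p-value. In TM4 its neighbours Hoxc6 and Hoxc9 stood at 18.8 and 3.49 CPM per kb, and Hoxc8 at 0.188 between them.

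Hoxc9 was 1369, 1433 and 1307 counts in TM3 against 134, 136 and 147 in TM4. The line difference was -3.28 ± 0.09 (log2, SE, adjusted p 4.96e-25, edgeR). The anterior Hoxc genes were also lower in TM4, Hoxc4 by -2.29 ± 0.08, Hoxc5 by -2.04 ± 0.14 and Hoxc6 by -0.39 ± 0.07 (adjusted p 1.09e-21, 2.69e-14 and 1.22e-05, edgeR). Hoxc4 held 901, 1032 and 803 counts in TM3 and 163, 214 and 177 in TM4. Hoxc5 held 326, 505 and 378 in TM3 and 113, 93 and 84 in TM4. For both genes no TM4 library reached the lowest of TM3. Hoxc6, the leading Hoxc gene of TM4, held 981, 1126 and 865 counts in TM3 and 700, 833 and 703 in TM4.

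Hoxc11, Hoxc12 and Hoxc13, the most posterior Hoxc genes, had the opposite order. Hoxc11, expressed in hindlimb and sacral levels, held 0, 0 and 2 counts in TM3 and 560, 599 and 650 in TM4. The ratio was 915 (95% counting interval 253 to 7560). Hoxc12 held 3, 1 and 0 counts in TM3 and 43, 58 and 33 in TM4, a ratio of 33.9 (12.9 to 126). Every TM4 library was above all of TM3 for both, which passed the filter through TM4 and could only come out higher there. Hoxc13, the gene of hair and nail keratinization at the very end of the cluster, was transcribed in both lines, with 199, 203 and 144 counts in TM3 and 289, 323 and 261 in TM4. TM3 thus held Hoxc13 while Hoxc11 and Hoxc12 between it and Hoxc10 were at the floor. Hoxc13 was higher in TM4 by 0.69 ± 0.11 (log2, SE, adjusted p 1.94e-06, edgeR), and Hoxc10 was lower by -0.34 ± 0.11 (adjusted p 0.00505).

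In the Hoxb cluster no member passed as lower in TM4. Hoxb9, which acts with its paralogs on the thoracic skeleton, held 56, 61 and 49 counts in TM3 and 3689, 4029 and 3772 in TM4. This was a difference of 6.13 ± 0.08 (log2, SE, adjusted p 7.17e-34, edgeR), and Hoxb9 was the highest member of TM4 while its rank was 25 in TM3. Hoxb7 was higher by 2.20 ± 0.08, Hoxb8 by 1.87 ± 0.09 and Hoxb6 by 1.24 ± 0.08, a run of 4 neighbouring genes with Hoxb9. Hoxb6, the leading Hoxb gene of TM3, held 411, 512 and 390 counts there and 932, 1129 and 1011 in TM4. Hoxb13, known as a regulator of the prostate epithelium, held 3, 2 and 2 counts in TM3 and 36, 40 and 52 in TM4, a ratio of 18.5 (95% counting interval 8.72 to 46.9). The middle genes Hoxb3, Hoxb4 and Hoxb5 did not pass (adjusted p 0.254, 0.462 and 0.0558, edgeR), and Hoxb5 passed in 4 of the 12 fits that leave out a library.

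The Hoxa cluster changed direction along its length. Hoxa5, a regulator of lung and neck structures, was lower in TM4 by -1.69 ± 0.12, with 318, 315 and 272 counts in TM3 and 90, 106 and 81 in TM4. Hoxa6 was lower by -2.19 ± 0.24, with 123, 186 and 84 counts in TM3 and 28, 30 and 26 in TM4. Hoxa3 was lower too, by -0.998 ± 0.0882. From Hoxa7 to Hoxa11 every gene was higher in TM4, and of the anterior members Hoxa4 was (1.03 ± 0.30, adjusted p 0.00211, edgeR). Hoxa11 held 232, 220 and 219 counts in TM3 and 745, 848 and 767 in TM4, a rise of 1.83 ± 0.08 (adjusted p 1.43e-19). Hoxa10, the leading Hoxa gene of both lines, held 900, 961 and 902 counts in TM3 and 1025, 1281 and 1106 in TM4, and the ranges in CPM did not overlap. Its difference was 0.32 ± 0.06 (adjusted p 2.31e-05, edgeR).

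Of the opposite-strand overlaps, 35.0% of the exon bases of Hoxa11 lie over Hoxa11os, 52.9% of those of Hoxb3 over Hoxb3os and 27.3% of those of Hoxb2 over Hoxb3os. No source used here gives the strand setting of the counting, and reads of these genes and their antisense partners cannot be told apart. No 100-base word of any member that GENCODE M21 holds occurred in a transcript of another place in the genome.

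**Figure D4:**
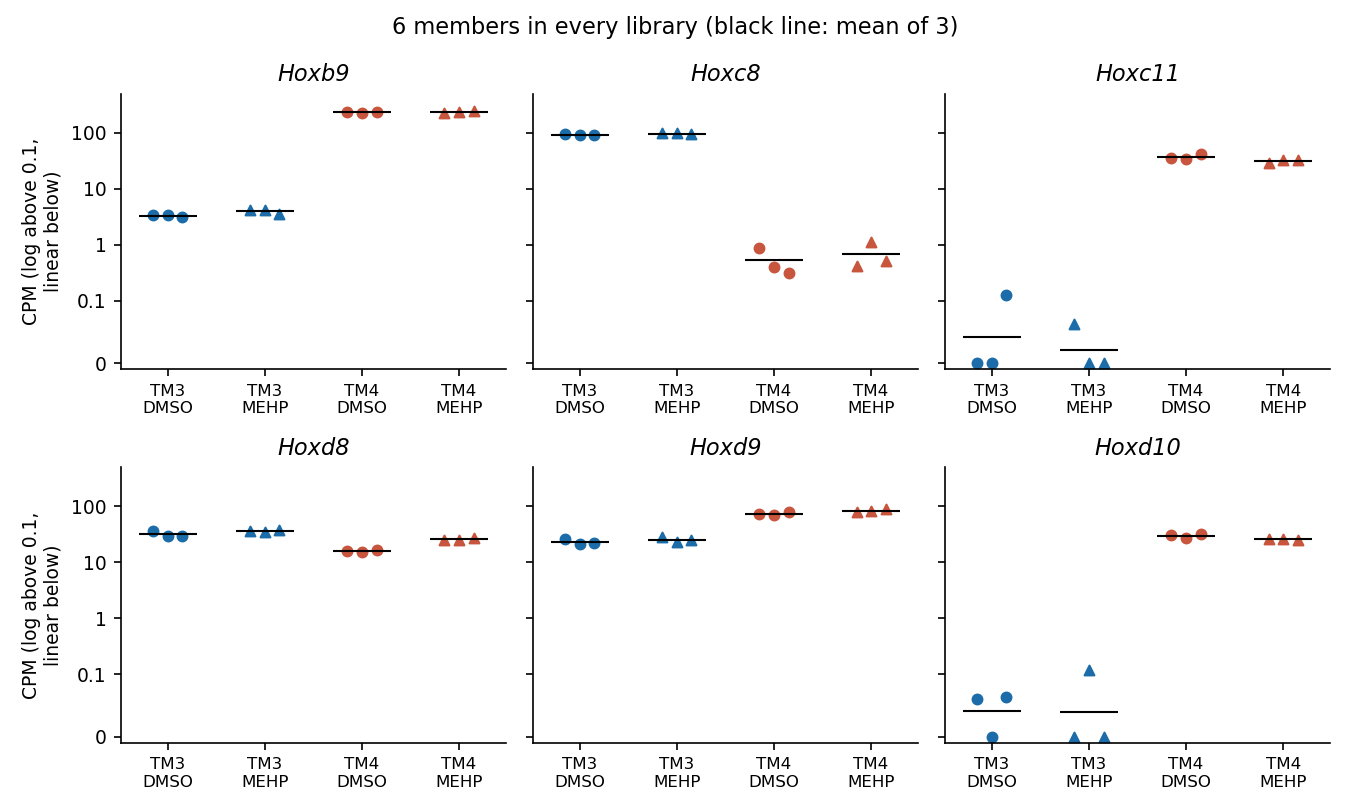
CPM of 6 members in every library of the 4 groups (axis logarithmic above 0.1 and linear below, circles DMSO, triangles MEHP, black line the mean of 3). Hoxb9, Hoxc11 and Hoxd10 were high in TM4 alone, Hoxc8 in TM3 alone, and Hoxd8 rose with MEHP in TM4.

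The line difference was kept under MEHP, where 16 members were higher and 15 lower in TM4 (91.2%, background 80.3%, or 39.9% higher and 40.4% lower). The libraries of this comparison are other ones than those of the DMSO comparison. Of the members, 27 were called under both treatments and all 27 in the same direction (79.4%), where 71.7% of all genes tested were. A further 2 members were called under DMSO alone (Hoxa10 and Hoxc13) and 4 under MEHP alone (Hoxa2, Hoxb3, Hoxb4 and Hoxd4). The 16 members called higher and the 27 called under both treatments include Hoxb13, Hoxc11, Hoxc12, Hoxd10 and Hoxd11. These 5 passed the filter through TM4 and could only come out higher there, so the counts with them are a description. Over the 29 members detected in both lines, 11 were higher and 15 lower in TM4 under MEHP (89.7%). The 15 include Hoxc8 and Hoxd4, which passed the filter through TM3, so this count too is a description. Hoxc8 is also among the 27. Groups 9 to 13 held 35.0 ± 0.239% of the summed level in TM3 with MEHP and 59.8 ± 0.557% in TM4.

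Noncoding genes inside the clusters differed between the lines in several places, in both directions. Between Hoxd10 and Hoxd9, the noncoding genes Gm14396 and Gm28793 had 0 counts in all TM3 libraries, and 28, 35 and 25 and 23, 29 and 20 counts in TM4 under DMSO. Between Hoxb13 and Hoxb9, Gm27605 and Gm27898 had 0 counts in all TM3 libraries, and 72, 42 and 54 and 8, 14 and 20 counts in TM4. Haglr, next to Hoxd1, was lower in TM4 by -2.13 ± 0.40 (log2, SE, adjusted p 1.68e-05, edgeR). Hotairm1, in the Hoxa cluster, was higher by 1.41 ± 0.15 (adjusted p 3.47e-10, edgeR). Gm11536, in the Hoxb cluster, was lower by -0.61 ± 0.22 (adjusted p 0.0120, edgeR). Hotair, the noncoding gene of the Hoxc cluster known from human cells to bind Polycomb proteins, held 3, 3 and 5 counts in TM3 and 10, 7 and 6 in TM4 and did not pass (adjusted p 0.0928). Hottip and Evx1, beyond Hoxa13, had 0 counts in both lines under DMSO, and Evx2, beyond Hoxd13, had at most 1.

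Genes outside the clusters went both ways. Of 17 tested genes that flank the clusters, 7 were higher and 8 lower in TM4 (88.2%, background 82.0% of all genes tested). Skap1, near the Hoxb cluster, was higher by 3.18 ± 0.80, and Lnpk, on the far side of Hoxd13, by 2.07 ± 0.09. Chn1, farther out on that side, was lower by -2.84 ± 0.35, and Hnrnpa1, beside the Hoxc cluster, by -1.17 ± 0.06. No gene of the ParaHox and Evx list passed the filter, and the Hox inducers Cdx1, Cdx2 and Cdx4 had 0 counts in every group.

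Of 10 TALE cofactors, all tested, 2 were higher and 5 lower in TM4 (70%, background 82.0%). Meis1, which binds DNA with Hox proteins and Pbx, was 139 CPM in TM3 and 18.2 CPM in TM4, a difference of -2.93 ± 0.07. Pknox1 and the Pbx-binding protein Pbxip1 were lower as well, by -1.08 ± 0.09 and -1.58 ± 0.07, and Pbx4, at 0.592 CPM in TM3 and 1.80 CPM in TM4, was higher by 1.61 ± 0.48.

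Of 31 Polycomb genes 17 were higher and 11 lower (90.3%, background 82.0%). Cbx7 (5.57 ± 0.26) and Phf19 (4.19 ± 0.18), a reader of repressive and a reader of active histone marks, stood at the top. Ring1 (-1.21 ± 0.08) stood at the bottom. Cbx7 was 0.281 CPM in TM3 and 13.7 CPM in TM4. Of 19 Trithorax-group and boundary genes 8 were higher and 6 lower (73.7%, with the same background). Among them were the H3K27 demethylase Kdm6a (1.65 ± 0.09), Rbbp5 (1.58 ± 0.06), Ash2l (-0.996 ± 0.0655) and the cohesin subunit Rad21 (0.97 ± 0.05). Median log2 fold changes were -0.27, 0.25 and 0.16 for the TALE, Polycomb and Trithorax lists, against -0.01 over all genes.

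Retinoic acid switches on anterior Hox genes in the embryo, and its genes split. Of 24 Hox inducers, 16 were tested and 8 were higher and 7 lower (93.8% of those tested, background 82.0%). The binding protein Crabp2 (4.98 ± 0.25) and T, the mesoderm factor Brachyury (5.04 ± 0.92), were higher in TM4, and the retinol importer Stra6 and the retinoic acid synthase Aldh1a2 were lower. Stra6 was 10.6 CPM in TM3 and 0.021 CPM in TM4, and Aldh1a2 0.886 CPM and 0, so both stood at the floor in TM4. Of 14 tested partners of Hox genes in the urogenital tract, 6 were higher and 7 lower (92.9%). Bmp4 was at 105 CPM in TM3 and 0.042 CPM in TM4, Wnt4 at 90.7 and 0.347, Msx2 at 0 and 9.59, and Tbx18 at 0.641 and 21.6. Of 10 tested other positional factors, 6 were higher and 3 lower (90%). Irx5 was at 0 in TM3 and 8.81 CPM in TM4, Tbx3 was higher by 4.53 ± 0.08, Otx1 by 5.16 ± 0.25, and Gata6 was lower by -3.20 ± 0.06. Bmp4, Stra6, Aldh1a2, Msx2, Irx5 and Cbx7 stood at or near the floor in 1 line. They passed the filter through the other line and could only come out higher there. The counts and shares of the lists that hold such genes are therefore a description.

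The members were called with MEHP about as often as all genes, and no call reached 2-fold. In TM3, 3 members were higher and 3 lower with MEHP (17.6% of 34, background 16.5%, or 9.04% higher and 7.43% lower). In TM4, 4 were higher and 6 lower (29.4%, background 30.9%, or 15.9% higher and 15% lower). Calls of at least 2-fold made up 0.675% of all genes in TM3 and 2.34% in TM4. The 5 members detected in TM4 alone stood at the floor in TM3 under DMSO. Without them the calls were 6 of 29 in TM3 (20.7%), where the fit on the TM3 groups alone tested 29 members and called 7. In all 14 members were called in either line (41.2%, against 40.7% of all genes). MEHP and DMSO libraries stood apart for 14 members in TM3 (41.2%, background 35.4%) and for 17 of 34 in TM4 (background 38.8%). The medians over the 29 members detected in both lines were 0.11 in TM3 and -0.02 in TM4 on the log2 scale, against 0.01 and 0.00 over all genes. Of the marker lists, the summed myoid and fibroblast level in TM4 went from 7517 to 8261 CPM with DMSO to 5235 to 5620 CPM with MEHP, and its part in the Hox values was not tested.

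**Figure D5:**
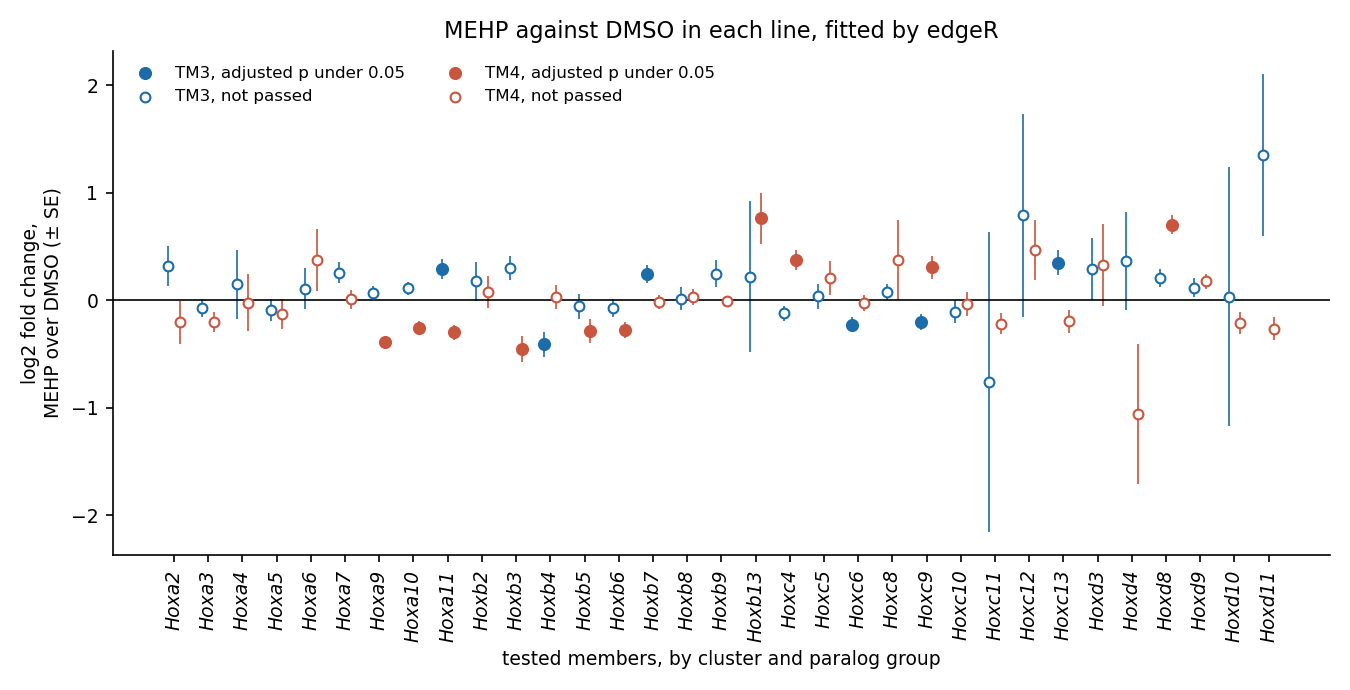
Log2 fold change of MEHP over DMSO with its standard error for tested members in TM3 (blue) and TM4 (red). Filled points passed an adjusted p of 0.05 (edgeR), 6 in TM3 and 10 in TM4. The largest called rise was Hoxb13 in TM4 (0.76), and wide bars belong to members near the floor.

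In TM4 the clearest change was in Hoxd8, which rose from 249, 269 and 258 counts with DMSO to 419, 457 and 469 with MEHP. All libraries with MEHP were higher, and the change was 0.70 ± 0.09 (log2, SE, adjusted p 6.50e-07, edgeR). Hoxc4 rose from 163, 214 and 177 to 242, 258 and 262 counts (0.37 ± 0.09, adjusted p 0.00288). Hoxb13 rose from 36, 40 and 52 to 70, 76 and 86 counts (0.76 ± 0.24, adjusted p 0.0136). Leaving out TM4 DMSO replicate 1, TM4 DMSO replicate 2 or TM4 MEHP replicate 3 ended this call. Hoxc9 rose from 134, 136 and 147 to 152, 179 and 218 counts (0.31 ± 0.11, adjusted p 0.0338), with overlapping CPM ranges, and leaving out either of the TM4 DMSO replicates 1 and 2, or the third MEHP library, ended the call.

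The falls in TM4 included the 3 posterior Hoxa genes in a row. Hoxa9 fell from 1665, 2028 and 1774 counts to 1369, 1614 and 1459 (-0.39 ± 0.06, adjusted p 4.47e-06, edgeR). Hoxa10 held 1025, 1281 and 1106 counts with DMSO and 944, 1085 and 1004 with MEHP (-0.26 ± 0.06, adjusted p 0.00157). Hoxa11 held 745, 848 and 767 and then 619, 712 and 710 counts (-0.30 ± 0.07, adjusted p 0.00186). In CPM the groups did not overlap for any of these genes. Hoxa11os, on the other strand of Hoxa11, was higher with MEHP by 0.39 (adjusted p 0.0341).

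The other falls in TM4 were in Hoxb genes. Hoxb3 went from 187, 195 and 187 counts to 147, 158 and 137 (-0.45 ± 0.12, adjusted p 0.00383, edgeR). Hoxb6 went from 932, 1129 and 1011 to 833, 1004 and 854 (-0.28 ± 0.07, adjusted p 0.00375). Hoxb5 went from 223, 299 and 214 to 186, 233 and 220 (-0.29 ± 0.11, adjusted p 0.0486), a call that 11 of the 12 fits without a library did not keep. Hoxb9, the highest member, did not pass (-0.01 ± 0.05, adjusted p 0.950). Hoxc11, Hoxd10 and Hoxd11 were lower with MEHP in each library in CPM, by -0.22, -0.21 and -0.26, and did not pass (adjusted p 0.0964, 0.122 and 0.0658, edgeR), although Hoxd11 did in DESeq2.

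In TM3 the falls were in Hoxb and Hoxc genes. Hoxb4 fell from 279, 318 and 252 counts to 189, 210 and 222 (-0.41 ± 0.11, adjusted p 0.0118, edgeR). Hoxc6 went from 981, 1126 and 865 to 783, 897 and 787 (-0.23 ± 0.07, adjusted p 0.0270). Hoxc9 went from 1369, 1433 and 1307 to 1099, 1191 and 1181 (-0.21 ± 0.07, adjusted p 0.0494). In CPM the groups did not overlap for these genes.

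The rises in TM3 were in Hoxa11, from 232, 220 and 219 to 266, 277 and 257 counts (0.29 ± 0.09, adjusted p 0.0220, edgeR), in Hoxb7, from 275, 252 and 244 to 298, 305 and 285 (0.24 ± 0.09, adjusted p 0.0491), and in Hoxc13, from 199, 203 and 144 to 210, 262 and 204 (0.35 ± 0.12, adjusted p 0.0392). Each of the 6 calls was lost in at least 3 of the 12 fits that leave out a library. Of the TM3 libraries, leaving out MEHP replicate 1 or 2 left 1 call, leaving out DMSO replicate 2 left 2, and leaving out the third library of either group left 3.

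The response to MEHP differed between the lines for 9 members (26.5% of 34, background 26.3%, or 13% positive and 13.3% negative), all 9 of them among the 29 detected in both lines, by the difference of the responses, TM4 minus TM3, in the same fit. It was positive for Hoxb4, Hoxc4, Hoxc9 and Hoxd8 and negative for Hoxa9, Hoxa10, Hoxa11, Hoxb3 and Hoxc13. Hoxa11 rose in TM3 and fell in TM4, and Hoxc9 fell in TM3 and rose in TM4. No member passed in the same direction in both lines, as 3.04% of all genes did.

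The values of the line without a call show the contrast. In TM3 Hoxa9 held 1062, 1224 and 1061 counts with DMSO and 1098, 1192 and 1132 with MEHP. Hoxa10 held 900, 961 and 902 and then 951, 1016 and 938. Hoxb3 held 184, 236 and 215 and then 269, 243 and 250, with CPM ranges apart and an adjusted p of 0.0580 (edgeR). The log2 fold changes of these genes in TM3 were 0.07, 0.11 and 0.30, and none passed.

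Hoxd8 held 586, 513 and 462 counts with DMSO and 565, 575 and 611 with MEHP in TM3, and Hoxc4 held 901, 1032 and 803 and then 779, 865 and 797. The log2 fold change of Hoxc4 in TM3 was -0.12 and did not pass (adjusted p 0.273, edgeR), against the called rise in TM4. In TM4 Hoxb4 held 247, 336 and 309 and then 271, 329 and 369 counts, and Hoxc13 held 289, 323 and 261 and then 245, 283 and 282.

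The lists were called with MEHP in shares on either side of the background of all genes. In TM3 (background 16.5%) these ran from 5.26% of the Trithorax-group list to 29.4% of the flanking genes, with 22.6% for Polycomb, and in TM4 (background 30.9%) from 20% of the TALE cofactors to 31.2% of the inducers. Of the 10 TALE cofactors, 1 was lower in TM3, Pbxip1 (-0.27), and in TM4 Pbxip1 was higher (0.43) and Meis2 lower (-0.36). Of the 31 Polycomb genes, 2 were higher and 5 lower in TM3, and 3 were higher and 4 lower in TM4. Of the 19 Trithorax-group and boundary genes, 1 was higher in TM3, Rad21 (0.17), while in TM4 1 was higher and 4 were lower, among them Kdm6a (-0.38) and the insulator protein Ctcf (-0.33). Of the 16 inducers tested, 4 were higher in TM3, with Stra6 (0.74) and Aldh1a1 (0.26) among them, and in TM4 3 were higher and 2 lower, with Aldh1a1 higher (0.51) and the retinoic acid receptor Rara lower (-0.38). Of the 14 partners in the urogenital tract, 1 was higher and 1 lower in TM3, and in TM4 1 was higher, Foxf1 (1.36), and 3 were lower. Tbx18 rose in TM3 (0.89) and fell in TM4 (-0.44), and Emx2 fell in both (-0.51 and -0.58). Of the 10 other positional factors, Gata6 fell in both lines (-0.29 and -0.39), and Tbx3 (-0.53) and Prrx1 (-0.27) fell in TM4. Of the 17 flanking genes, 2 were higher and 3 lower in TM3, and 1 was higher and 3 lower in TM4.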

How the data were processed

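Polyadenylated RNA was sequenced from 12 libraries, 3 in each of 4 groups, per the labels' protocols. The authors deposited raw counts per gene and library, whole numbers with no normalization, with gene coordinates and model lengths. The submitters' processing notes list HISAT2 2.0.5, featureCounts 1.5.0-p3 and other tools, with no role given, on mm10. For the annotation release, strand setting and counting options, the sources used here give nothing, and Hoxd4 differed from GENCODE M21, where the other 38 rows had the same coordinates and lengths.

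Counts were scaled by TMM factors to CPM and divided by model length for levels between genes. Genes were filtered by filterByExpr, which left 15700 of 55004 for edgeR 4.0.16 under R 4.3.3 (robust quasi-likelihood F-test, 1 fit over all groups, 8 residual degrees of freedom, biological coefficient of variation 6%), with Benjamini-Hochberg adjusted p under 0.05 as the threshold. Standard errors were derived from each fold change and its F statistic. Ratios of members near 0 have 95% counting intervals from the summed counts. Fits were tested on simulated data. Alternatives were other scalings, filters, DESeq2 1.42.0, a replicate block and leaving out each library.

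All 39 members were looked up. The values of 1 member are not reported here, and it is left out of the plots by gene. Values per library are given for the highest member of each cluster in each line, for members called with MEHP or in the difference of responses, for the 6 largest changes each way between lines with 1 CPM in a line, and for members detected in 1 line. From each list up to 4 called genes with the largest changes are named, and a few others that the text describes were chosen after their values were seen. The members, lists and tests were chosen with earlier results of these data known. Replicate pairs differed by more than sampling noise, so each library counts as 1 sample.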

Additional observations from a re-analysis of the deposited data

Results flagged for a closer look

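The responses to MEHP differed between the lines, by the difference of log2 fold changes (TM4 minus TM3) in the edgeR fit, for 9 members. 4 differences were positive, 0.50 ± 0.12 (SE) for Hoxd8 (adjusted p 0.00300), 0.51 ± 0.13 for Hoxc9 (adjusted p 0.00422), 0.50 ± 0.12 for Hoxc4 (adjusted p 0.00222) and 0.44 ± 0.16 for Hoxb4 (adjusted p 0.0367). In Hoxd8 and Hoxc4 the rise was called in TM4, in Hoxb4 the fall was called in TM3, and in Hoxc9 both the fall in TM3 and the rise in TM4 were called.

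5 differences were negative, -0.46 ± 0.08 for Hoxa9 (adjusted p 9.06e-05), -0.37 ± 0.09 for Hoxa10 (adjusted p 0.00202), -0.59 ± 0.11 for Hoxa11 (adjusted p 0.000253), -0.76 ± 0.16 for Hoxb3 (adjusted p 0.000744) and -0.54 ± 0.16 for Hoxc13 (adjusted p 0.0113). In Hoxa11 both the rise in TM3 and the fall in TM4 were called. In Hoxb3 the change was 0.30 ± 0.11 in TM3 (adjusted p 0.0580) and -0.45 ± 0.12 in TM4. The call of Hoxb4 was lost in 6 of the 12 fits without a library and in DESeq2, and that of Hoxc13 in 2. Each contrast shares the DMSO libraries of its line.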

How the results depend on the processing

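Alternatives were run for the counts of calls, the detected members, the shares and 37 effects of single members, and none of these changed direction. For the 37 effects, 238 values kept their side of the threshold and 12 did not under other scalings, filters, tests or groups, and 389 did and 55 did not on leaving out a library. Those 12 belong to Hoxb7, Hoxc9 and Hoxa11 in TM3, Hoxc9 and Hoxb5 in TM4 and the difference for Hoxb4. Member calls on leaving out 1 library ranged from 1 to 7 for MEHP in TM3, 7 to 11 in TM4, 7 to 9 for the difference, 29 to 30 between lines with DMSO and 29 to 31 with MEHP. Under other scalings the log2 fold changes of the Hox members shifted by a median of at most 0.04 in size. The labels do not say whether replicate numbers pair the libraries, and correlations of deviations between libraries of the same number (-0.076 to 0.12) cannot decide it. With a replicate block 6, 11, 9, 30 and 31 members were called in that order, with Hoxd9 in TM4 and Hoxb5 between lines with DMSO among those added. In CPM, without division by length, Hoxa, Hoxb and Hoxc held 30.9%, 14.03% and 47.1% in TM3 with DMSO, and Hoxa to Hoxd 27.5%, 44.1%, 13.7% and 14.8% in TM4. Groups 9 to 13 then held 37.9% in TM3 and 65.2% in TM4 (38.3% and 63.7% with MEHP). Without the highest of all members (Hoxc9 in TM3, Hoxb9 in TM4) the shares of Hoxa to Hoxd were 29.8%, 18.5%, 42.0% and 9.75% in TM3, and 25.9%, 34.2%, 19.8% and 20.1% in TM4, and groups 9 to 13 held 25.7% and 49.7%. With MEHP, where Hoxc8 was the highest of TM3, they held 40.0% and 48.1%. Members under 10 counts are limited by depth.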
